A study of Mus musculus with 32 samples.

Results

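Peaks of N6-methyladenosine (m6A) whose summit lay in the last 10% of a protein-coding gene are described here. They are called gene-end peaks below. A peak counted when its summit fell in the mm10 body of exactly 1 gene, when that gene was protein-coding and at least 5 kb long, and when the summit lay in its last 10%, read along the peak's own strand. The 16 peak lists held 95282 such peaks among 496760 peaks off the spike-in RNA (19.2%), and among 376774 peaks in genes of this class (25.3%). They fell in 7172 of the 11390 genes of the class that carried any peak. The other 281492 peaks of the same genes are called peaks elsewhere in the gene. Position along the peak strand was used because the gene table gives no strands. A separate promoter table gave the annotated strand for 80.8% of the gene-end peaks, and a gene-end peak on the opposite strand lies in the first 10% of its gene as annotated.

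The cells were mouse embryonic stem cells of the strain C57BL/6, kept in LIF (1000 U/ml), CHIR99021 (3 µM, an inhibitor of the kinase GSK3) and PD0325901 (1 µM, an inhibitor of the kinase MEK). A Mettl3 line and a Mettl14 line were each profiled as Mettl3 Control and Mettl3 CKO, and Mettl14 Control and Mettl14 CKO, where CKO is the labels' word for the knockout. The labels leave out how the gene was removed, how complete the removal was, which alleles the Control cells carried, and whether replicates came from separate cultures, so p-values measure only how far these libraries vary, and that variation may be technical. RNA enriched with an m6A antibody was sequenced. It was either polyadenylated (mRNA) or bound to chromatin and depleted of ribosomal RNA (caRNA), which gave 8 groups of 2 libraries. Mettl3 mRNA below means mRNA of the Mettl3 line, and likewise for the other 3. The 16 input samples were not analysed here. The lists held 16537 to 45241 peaks. Read depth is unknown, so a missing peak can mean less methylation, less RNA or fewer reads, and these cannot be told apart. Of 8 embryonic stem cell markers, 7 carried a peak somewhere in the gene, with Esrrb, Zfp42 and Sall4 marked in every list and Sox2 in none. Of 10 feeder fibroblast markers, 7 carried a peak in at least 1 list, with Col1a2 in all 16 and Postn, Lum and Dcn in none. A summit inside more than 1 gene body was given to no gene. A marker in no list, such as Sox2, may therefore still carry peaks. Peaks are no measure of expression, so these markers describe the RNA and do not test the label.

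m6A is written on adenosines of nascent and messenger RNA by a complex in which METTL3 is the catalytic subunit and METTL14 the partner that binds the RNA. The adenosine usually stands in a short consensus with the core GGAC. In messenger RNA the mark is known to be dense around the stop codon and in the first part of the 3' untranslated region, which in genomic terms often is close to the end of the gene. Reader proteins of the YTH family bind the mark and influence decay, translation and export of the RNA. Chromatin-associated RNA holds nascent and unspliced transcripts, which are mostly intron. The gene table used here gives no exons, so no peak could be assigned to an exon, an intron or a stop codon.

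Sequences are shown for the small set of gene-end regions that happened to lie in a RefSeq promoter window, 250 bases before to 50 bases after a gene start, of the GRCm38.p6 assembly. Peaks of the 16 lists were merged by strand where they overlapped by at least 1 bp, which gave 11374 gene-end regions. The summit of 136 of them lay in such a window, usually that of a neighbouring gene, and 79 had 50 bases on both sides of the summit inside it. The motif searched was GGAC on the strand of the peak. It occurred within those 101 bases in 33 of the 79 regions (41.8%) and on the other strand in 34.2%. In 32851 promoter stretches of the same length the rate per single strand, averaged over both strands, was 30.9%. The member stretches had a GC content of 62.7% and the promoter stretches 54.0%. Of the 26 regions present in at least 8 lists, 15 held the motif (57.7%). Promoter windows are rich in GC and cover few gene ends, so these shares describe this subset of regions. The lines that follow show regions found in 13 to 16 lists and on the annotated strand of their gene, 5' to 3' on the strand of the peak, with the motif in capitals.
C2cd3: ggaaacctgagGGACgtggctaccag
Tmc4: atcaagtgatgGGACtctttcatctc
Pcif1: gggtggcagcaGGACttgagctgcca
Plet1: caggttgcaaaGGACttatgtgactt

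These stretches lie at chr7:100469519-100469544 for C2cd3 (plus strand), a centriole protein, and at chr7:3665870-3665895 for Tmc4 (minus strand). Pcif1, which encodes the enzyme that methylates the first transcribed adenosine of messenger RNA, has its stretch at chr2:164891193-164891218 and Plet1 at chr9:50504934-50504959, both on the plus strand. The authors' fold enrichment of the C2cd3 region ranged from 3.99 to 10.8 over 16 lists and that of Tmc4 from 3.10 to 8.11. Pcif1 was marked in 15 lists, at 3.13 to 9.49, and Plet1 in 13, at 4.18 to 11.8. The distance from summit to gene end was 597 bases in C2cd3, 116 in Tmc4, 229 in Pcif1 and 693 in Plet1. A pair of regions on the opposite strand, also found in every list, are shown because they lie near the annotated start of their gene, and so are gene-end peaks only along the peak strand.
Brd9: gcaccttcgtaGGACgagcgccattc
Arih1: ggagagggcggGGACgccgaggcccc

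The Brd9 stretch (chr13:73937924-73937949, minus strand) also lies in the promoter window of Trip13, whose annotated strand is that of the peak. Its fold enrichment ranged from 4.47 to 13.3 over 16 lists. The Arih1 stretch (chr9:59486389-59486414, plus strand) lies in the promoter window of Arih1 itself, on the opposite strand, with folds of 4.17 to 21.1. Among regions without the motif within 50 bases of the summit, Lrp6, which encodes a WNT co-receptor, was marked in all 16 lists (3.39 to 11.4). Motif occurrence varied between regions that were equally persistent across lists.

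The last 10% held more summits than any other 10% of the gene in every library, by a wide margin in mRNA and a narrower one in caRNA. In mRNA it held 29.2% to 40.1% of the summits in genes of the class, against 12.4% to 13.8% in the 10% before it and 7.73% to 12.5% in the first 10%. The caRNA lists had 17.4% to 23.6% there, against 10.2% to 10.9% in the 10% before it and 14.4% to 16.1% in the first 10%. Steps 2 to 7 of the 10 steps each held 4.48% to 7.10% in mRNA and 6.93% to 8.32% in caRNA. The mRNA profile was thus steeper at the gene end, and the caRNA profile flatter with a higher start. Within the last 10% the density went on climbing until the final 1%, where it was slightly lower. In mRNA the stretch from 90% to 91% of the gene held 1.72% of peaks, that from 98% to 99% held 6.02% and the final 1% held 5.36%. Just outside the boundary, the stretch from 89% to 90% held 1.65% in mRNA and 1.2% in caRNA, close to the 1.72% and 1.31% just inside. The boundary thus lay on a slope and not at a step.

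**Figure D1:**
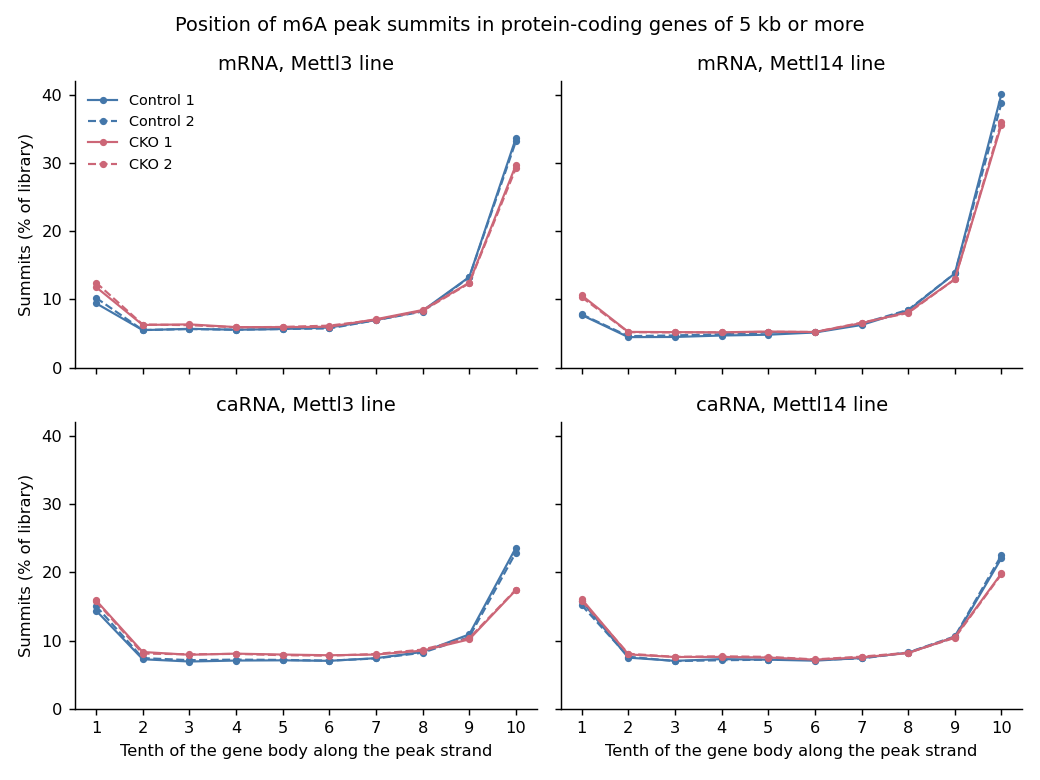
Share of m6A peak summits (y axis, % of summits in genes of the class in that library) by 10% step of the gene body along the peak strand (x axis, 1 is the first step and 10 the last), with 1 line per library and 1 panel per RNA type and line. The last step is the highest point of all 16 lines, and in every panel both CKO lines end below both Control lines.

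In all 4 comparisons the knockout lists held a smaller share of gene-end peaks. In Mettl3 mRNA the share was 33.6% and 33.2% in the Controls and 29.7% and 29.2% in the CKO libraries. In Mettl14 mRNA it was 40.1% and 38.8% in the Controls and 35.6% and 36.0% in the CKO libraries. Each CKO library lay below both of its Controls. In Mettl3 caRNA the Controls held 23.6% and 22.9% and the CKO libraries 17.4% and 17.5%. In Mettl14 caRNA the Controls held 22.1% and 22.5% and the CKO libraries 19.8% and 19.7%. The groups did not overlap there either.

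Averaged over the 4 comparisons the share of gene-end peaks differed by -3.98 points between CKO and Control, and it was lower in 8 of 8 CKO libraries (exact two-sided permutation test of genotype within comparisons, Benjamini-Hochberg adjusted over 8 tests, p = 0.00617). The unadjusted p of 0.00154 is the smallest this design allows, and a single comparison of 2 with 2 libraries cannot go below 0.333. The difference was -3.95 points in Mettl3 mRNA, from 33.4% ± 0.330 to 29.4% ± 0.336 (SD, n = 2). It was -3.63 points in Mettl14 mRNA, from 39.4% ± 0.943 to 35.8% ± 0.302 (SD, n = 2). Mettl3 caRNA differed most, by -5.83 points from 23.2% ± 0.50 to 17.4% ± 0.0512 (SD, n = 2), which is a change of -25.1% of the Control share. In Mettl14 caRNA the difference was -2.51 points, from 22.3% ± 0.306 to 19.8% ± 0.0801 (SD, n = 2). Each difference exceeded the spread between replicates. Neither the difference between lines (1.82 points, exact permutation adjusted p = 0.520) nor that between RNA types (-0.382 points, exact permutation adjusted p = 0.849) passed this test, in which the knockout effect itself is permuted. When lists were cut to their 10000 strongest peaks the mean difference was -5.73 points (exact permutation adjusted p = 0.00617). With the last 1 kb of each gene in place of its last 10% the difference was -2.15 points, over 1.5 times smaller, and it still passed (exact permutation adjusted p = 0.00412).

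**Figure D2:**
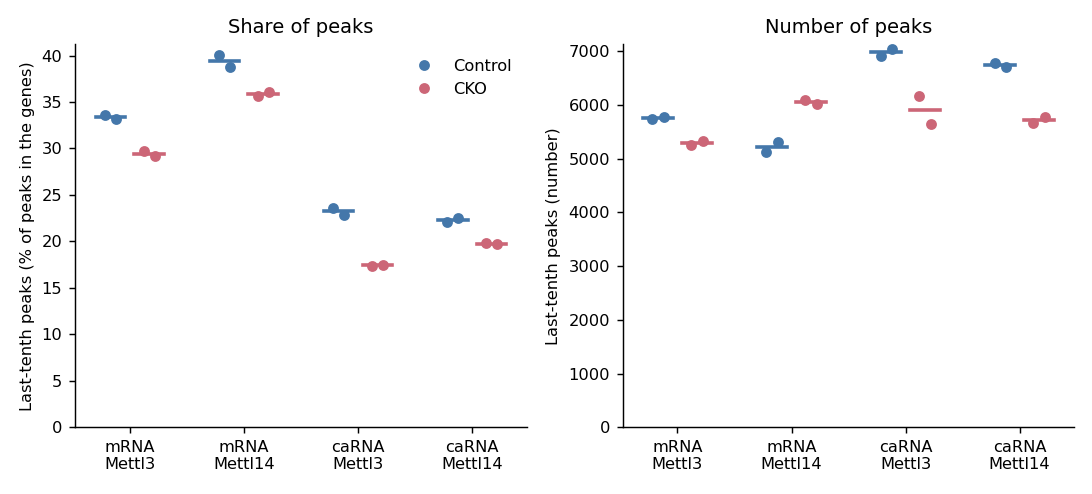
Left, gene-end peaks as a share (%) of peaks in genes of the class; right, their number. Points are libraries and bars group means (n = 2), for each RNA type and line on the x axis; both y axes start at 0. The share is lower in CKO in all 4 comparisons, while the number is lower in 3 and higher in Mettl14 mRNA.

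The number of gene-end peaks did not follow the share everywhere. In Mettl3 mRNA it went from 5729 and 5781 in the Controls to 5249 and 5323 in the CKO libraries. In Mettl14 mRNA it went the other way, from 5118 and 5299 to 6097 and 6015, as the lists themselves lengthened from 16537 and 17738 peaks to 23380 and 22654. That comparison is the exception, with more gene-end peaks and a smaller share of them. In Mettl3 caRNA the number went from 6909 and 7034 to 6156 and 5649, and in Mettl14 caRNA from 6769 and 6709 to 5665 and 5780. The mean difference of -427 peaks did not pass (exact permutation adjusted p = 0.136, over 14 tests chosen after the values were seen). Counted by gene, the share of peak-bearing genes with a gene-end peak differed by -5.86 points between CKO and Control (exact permutation adjusted p = 0.00432). It went from 57.4% to 51.2% and from 61.7% to 60.3% in Mettl3 and Mettl14 mRNA, and from 54.9% to 45.1% and from 52.1% to 46.1% in caRNA. Peaks per marked gene stayed between 1.31 and 1.45 over the 16 lists.

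At the other end of the gene the share was higher in the knockouts. The first 10% held 1.64 points more of the summits in CKO lists (exact permutation adjusted p = 0.00432), with 9.83% against 12.1% in Mettl3 mRNA and 7.77% against 10.5% in Mettl14 mRNA. In caRNA the means were 14.7% and 15.8% in the Mettl3 line and 15.5% and 15.9% in the Mettl14 line. Shares of one library sum to a fixed total, so both ends are not independent. Within the last 10% the summits of CKO lists lay farther from the gene end, by 99.75 bases in the mean of the library medians (exact permutation adjusted p = 0.00720). The difference was 120.5 and 1.25 bases in Mettl3 and Mettl14 mRNA and 145.5 and 131.75 bases in caRNA. The Mettl14 mRNA groups overlapped in this distance, and the other 3 pairs of groups did not. Median gene length, taken over gene-end peaks so that a gene counted once per peak, was also higher in the CKO lists of those 3 comparisons. The means of the library medians were 49719 against 46503 bases in Mettl3 mRNA, 43071 against 41587 in Mettl3 caRNA and 50771 against 48115 in Mettl14 caRNA. In Mettl14 mRNA the groups overlapped in gene length as well, and the part of gene length in the shift of distance was not tested.

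Gene length changed the share itself, and the knockout difference was present in every length class. In mRNA the median share over the 8 libraries was 24.5% in genes of 5 to 10 kb, 29.7% at 10 to 20 kb, 36.2% at 20 to 50 kb, 36.8% at 50 to 100 kb and 38.8% above 100 kb. In caRNA it was 16.9%, 20.1%, 23.6%, 22.5% and 18.8% in the same classes. The mRNA share thus kept climbing with length, while the caRNA share was highest in genes of 20 to 50 kb. In each of the 20 combinations of class and comparison both CKO libraries lay below both Controls. In Mettl3 caRNA the difference ranged from -2.62 points in genes of 5 to 10 kb to -7.12 points at 50 to 100 kb. In Mettl14 mRNA it was largest above 100 kb, from 45.7% to 39.5%, whereas in Mettl3 mRNA it was smallest there, from 38.1% to 36.1%. These classes share libraries and were not tested separately.

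**Figure D3:**
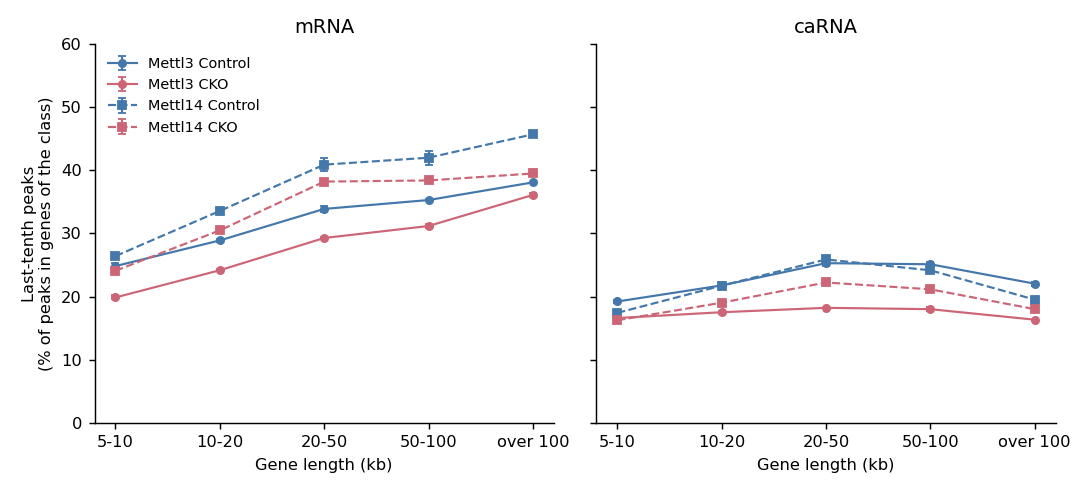
Share of gene-end peaks (y axis, % of peaks in genes of the length class) by gene length (x axis, kb), left for mRNA and right for caRNA. Points are group means of 2 libraries, with error bars from the lower to the higher library, solid for the Mettl3 line and dashed for the Mettl14 line. Every CKO point lies below the Control point of its line and class, and the mRNA shares climb with length while the caRNA shares turn down above 50 kb.

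Between RNA types the share differed by -13.8 points, caRNA minus mRNA, and it was lower in each of the 8 caRNA libraries than in any mRNA library (exact permutation adjusted p = 0.00617). The number of gene-end peaks was higher in caRNA on average, with a mean difference of 757.5 (exact permutation adjusted p = 0.0264). It ranged from 5649 to 7034 in caRNA and from 5118 to 6097 in mRNA. The Mettl14 CKO libraries went the other way, with 5665 and 5780 in caRNA against 6097 and 6015 in mRNA. In the other groups both caRNA libraries lay above both mRNA libraries. The caRNA lists held 28558 to 35419 peaks in genes of the class and the mRNA lists 12762 to 18227. Among peaks with a known gene strand, 2.72% to 4.33% of gene-end peaks lay on the opposite strand in mRNA and 5.34% to 9.20% in caRNA, a difference of 2.94 points (exact permutation adjusted p = 0.00432). With the last 1 kb of the gene the difference in share between RNA types was -5.72 points, and counted by gene it was -8.10 points (exact permutation adjusted p = 0.00412 and 0.00386). Between lines the share was 3.46 points higher in the Mettl14 line (exact permutation adjusted p = 0.0185). That held in mRNA, at 39.4% against 33.4% in Controls, and in caRNA only for the CKO libraries, at 19.8% against 17.4%, while the caRNA Controls stood at 22.3% and 23.2%. The line difference no longer passed with the last 1 kb (1.26 points, exact permutation adjusted p = 0.119) or counted by gene (2.91 points, exact permutation adjusted p = 0.116), and the Mettl14 mRNA Control lists were the shortest of all. Nor did the line difference pass with same-numbered replicates treated as blocks (exact sign-flip permutation adjusted p = 0.0547).

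Peaks of the last 10% were broader than peaks elsewhere in the same genes, while their fold enrichment did not differ past the threshold. Their median width was 313 to 364 bp in mRNA and 291.5 to 386 bp in caRNA, against 223 to 307.5 bp and 225 to 297 bp elsewhere. The difference was 79.75 bp in the mean of the 8 group means (exact sign-flip permutation adjusted p = 0.0137). Fold enrichment was compared as a percentile within its own list, because folds of different lists are not on one scale. Gene-end peaks stood at a median percentile of 46.7 to 50.2 in mRNA lists and 47.5 to 59.5 in caRNA lists, and peaks elsewhere at 48.2 to 49.9 over all lists. The mean excess over peaks elsewhere, 3.01 percentile points, did not pass (exact sign-flip permutation adjusted p = 0.198), and it was negative with the last 1 kb (-2.87). Averaged over lines and genotypes, the percentile was 5.62 points higher in caRNA than in mRNA (exact permutation adjusted p = 0.0185). With same-numbered replicates treated as blocks this difference no longer passed (exact sign-flip permutation adjusted p = 0.0547). The Mettl3 CKO libraries went the other way, with means of 47.5 in caRNA and 49.8 in mRNA. In the other groups both caRNA libraries lay above both mRNA libraries. Between CKO and Control the percentile of gene-end peaks differed by -2.03 points, which did not pass (exact permutation adjusted p = 0.198). The direction was not the same everywhere, with 0.422 points in Mettl3 mRNA, 1.94 in Mettl14 mRNA, -7.87 in Mettl3 caRNA and -2.61 in Mettl14 caRNA, and the groups overlapped in Mettl3 mRNA alone. Mettl3 caRNA stood at 55.4 ± 0.431 in the Controls and 47.5 ± 0.0382 in the CKO libraries (SD, n = 2).

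Single regions were followed through each comparison to see which gene-end peaks were absent in the knockouts. Overlapping peaks from the 4 libraries compared were merged. A region was called lost when both Controls and neither CKO library held a peak, gained in the reverse case, and retained when all 4 held one. In Mettl3 caRNA 1365 of 6038 gene-end regions were lost (22.6%), against 12.9% elsewhere in the same genes and 16.4% of all regions of that comparison. In Mettl3 mRNA 568 of 5061 were lost (11.2%), against 8.48% elsewhere and 10.2% of all. Both shares in the Mettl3 line were above those elsewhere in the gene. In Mettl14 caRNA 873 of 5937 were lost (14.7%), close to the 14.3% elsewhere and the 15.7% of all regions. In Mettl14 mRNA 199 of 4452 were lost (4.47%), below the 8.60% elsewhere and the 6.33% of all. These are shares of regions in 4 libraries each, with no test within a comparison.

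Gains were rarer in the last 10% than elsewhere in all 4 comparisons. In Mettl3 mRNA 243 of 4510 regions found in both CKO libraries were gained (5.39%), against 12.1% elsewhere and 9.95% of all regions. In Mettl14 mRNA 830 of 5517 were gained (15.0%), against 28.9% elsewhere and 25.6% of all. In caRNA the counts were 400 of 4612 in the Mettl3 line (8.67%, against 18.5% elsewhere and 16.9% of all) and 176 of 4693 in the Mettl14 line (3.75%, against 10.8% elsewhere and 9.16% of all). Losses outnumbered gains in the last 10% in 3 comparisons, and gains outnumbered losses in Mettl14 mRNA, where the CKO lists were longer. With lists cut to the 10000 strongest peaks that turned, with 8.53% lost and 7.02% gained, and the caRNA Mettl3 loss rose to 44.9% of gene-end regions against 24.7% elsewhere. With regions joined only where summits lay within 100 nt, the Mettl14 mRNA loss was 10.7% and the gains were 9.41%, 16.2% and 8.94% in Mettl3 mRNA and Mettl3 and Mettl14 caRNA. Leaving out 1 library, after which the remaining library of its group decides the call alone, moved the mRNA Mettl3 gain to 8.14%, 9.42% and 8.59% without Control 2, CKO 1 and CKO 2, and the mRNA Mettl14 loss to 6.96% without Control 1. It moved the caRNA gains to 13.2% and 16.2% without CKO 1 and CKO 2 of the Mettl3 line, and to 7.83% and 6.89% without CKO 1 and CKO 2 of the Mettl14 line.

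**Figure D4:**
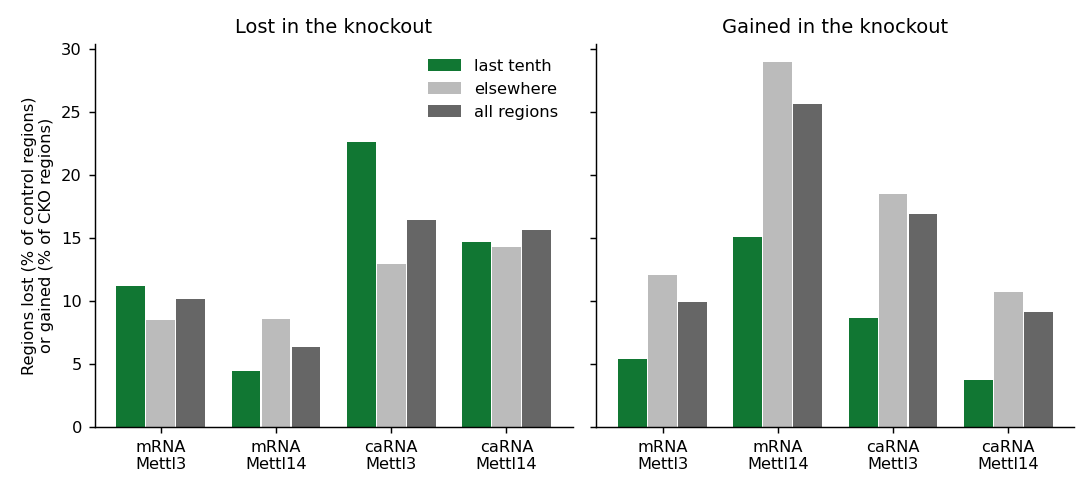
Share of m6A regions lost (left, % of regions found in both Controls) and gained (right, % of regions found in both CKO libraries) in each comparison, for gene-end regions, regions elsewhere in the same genes and all regions. Bars start at 0 and each comes from 4 libraries. Gene-end gains are the lowest bar of every comparison, and the gene-end loss in Mettl3 caRNA is the highest loss, at 22.6%.

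Gained regions lay on the opposite strand more often than retained ones in each comparison, and lost regions in some. In Mettl14 mRNA 65 of the 157 lost gene-end regions with a known gene strand lay on the opposite strand (41.4%), against 2.00% of the retained ones. Over all lost regions of that comparison the share was 33.0% (212 of 642), and over lost regions elsewhere in the same genes 26.8%, so it was high outside gene ends too. Among lost gene-end regions of the other comparisons the share was 2.60% in Mettl3 mRNA, 3.92% in Mettl3 caRNA and 7.73% in Mettl14 caRNA. Over all lost regions of these comparisons it was higher, at 12.54%, 17.03% and 19.14%. Among gained gene-end regions it was 20.7%, 7.24%, 20% and 15.0% in Mettl3 and Mettl14 mRNA and Mettl3 and Mettl14 caRNA. Retained gene-end regions stood at 2.19%, 2.00%, 5.55% and 4.24%. Over all gained regions the share was 8.04%, 16.3%, 7.37% and 7.12% in the same order. The share of gained gene-end regions was thus below that of all gained regions in Mettl14 mRNA and above it in the other comparisons. Restricted to the annotated strand, or to the strand with the stronger peaks where none is annotated, the mRNA Mettl14 loss was 2.72%, over 1.5 times lower, and the other losses were 11.2%, 22.8% and 14.4%.

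Lost regions had been weaker than retained ones at the median. In Mettl3 mRNA lost gene-end regions had a median fold percentile of 23.2 in the Controls and retained ones 59.7. In caRNA the medians were 39.6 and 72.3 in the Mettl3 line and 29.8 and 73.8 in the Mettl14 line. The gap was smallest in Mettl14 mRNA, at 42.8 and 52.8. By quartile of Control strength, set over all regions of the comparison, 36.9%, 37.4%, 20% and 4.02% of gene-end regions were lost in Mettl3 caRNA from the weakest to the strongest, against 16.2%, 19.9%, 11.8% and 2.80% elsewhere. Gene-end regions of the Mettl3 line in caRNA were thus lost more often than regions elsewhere at each level of strength. In Mettl3 mRNA the gene-end loss was 25.1%, 11.5%, 6.82% and 0.751%, against 11.2%, 11.8%, 8.84% and 1.51% elsewhere, so it was higher in the weakest quartile alone and lower in the other 3. In Mettl14 mRNA the loss was 5.76%, 3.96%, 4.46% and 3.49%, lower than elsewhere in each quartile (13.1%, 9.56%, 7.30% and 4.02%). In Mettl14 caRNA it was 41.1%, 23.5%, 5.36% and 0.256%, against 28.0%, 21.4%, 5.74% and 0.271% elsewhere. The gene-end loss there was thus higher in the weaker quartiles, most in the weakest, and slightly lower in the stronger ones.

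Regions found in all 4 libraries of a comparison were then ranked by fold enrichment within each library, so that only their order counts. In Mettl3 caRNA 3885 retained gene-end regions had median percentiles of 62.8 and 61.8 in the Controls and 44.1 and 44.2 in the CKO libraries. In Mettl14 caRNA 4352 regions stood at 60.2 and 59.8 in the Controls and 54.5 and 53.7 in the CKO libraries. In Mettl3 mRNA 4028 regions stood at 51.9 and 52.1 against 49.3 and 48.9. The groups did not overlap in these 3 comparisons. In Mettl14 mRNA 4157 regions stood at 45.9 and 46.2 in the Controls and 46.3 and 46.0 in the CKO libraries, which overlap. Over the 4 comparisons the rank differed by -6.72 percentile points between CKO and Control (exact permutation adjusted p = 0.0137, over the 14 tests chosen after the values were seen). Retained regions elsewhere in the same genes moved up by 0.937, 0.322, 3.94 and 3.11 points in Mettl3 mRNA, Mettl14 mRNA, Mettl3 caRNA and Mettl14 caRNA. Ranks within a library are relative, so a lower rank of one set goes with a higher rank of another.

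Counted by region, the rank was lower in both CKO libraries than in both Controls for 1940 of 3885 gene-end regions in Mettl3 caRNA (49.9%), against 29.2% of all retained regions there. In Mettl14 caRNA it was lower for 1531 of 4352 (35.2%), against 29.5% of all. In Mettl3 mRNA it was lower for 1234 of 4028 (30.6%), against 26% of all, and in Mettl14 mRNA for 917 of 4157 (22.1%), against 22.8% of all. The Mettl14 mRNA share lay at the background. Higher ranks in both CKO libraries were found for 16.8%, 19.1%, 19.3% and 24.3% in the same order, against 33.7%, 28.8%, 23.4% and 25.4% of all retained regions. The Mettl14 mRNA value was again near that of all regions.

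**Figure D5:**
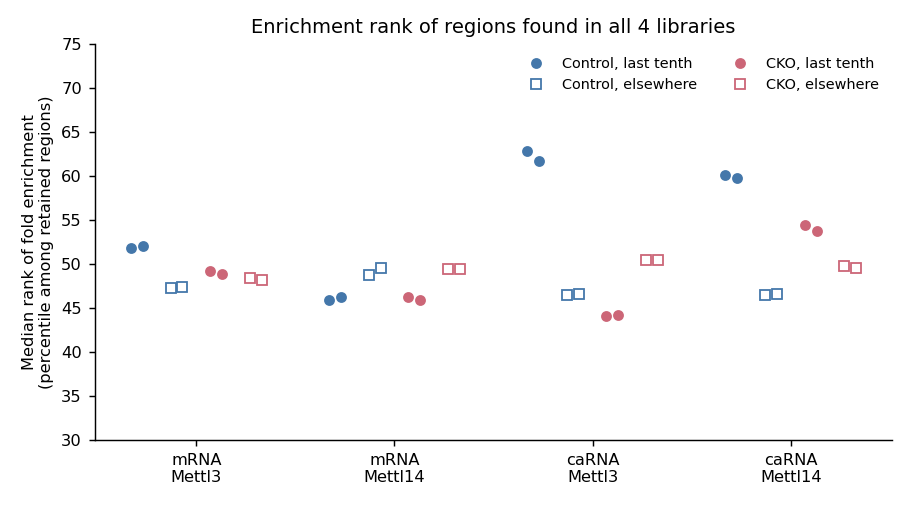
Median fold-enrichment rank (y axis, percentile among regions found in all 4 libraries of the comparison) of gene-end regions (filled circles) and regions elsewhere in the same genes (open squares), 1 point per library, Controls in blue and CKO in red, by RNA type and line. The y axis runs from 30 to 75. In Mettl3 caRNA gene-end regions go from 62.8 and 61.8 to 44.1 and 44.2, while Mettl14 mRNA shows no separation.

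Gene-end regions were found in all 16 lists more often than regions elsewhere in the same genes. Of the 11374 gene-end regions 2103 were found in all 16 lists (18.5%), in 1958 genes, against 7.07% of regions elsewhere in the same genes and 8.39% of all 80081 regions. At the other extreme 1848 were found in 1 list (16.2%). The regions with the highest fold in their weakest list lay in Syt14, Tenm4, Chd7, Pik3ca, Acvr2a, Celsr1, Zbtb11 and Trps1. In Pik3ca, which encodes a catalytic subunit of phosphoinositide 3-kinase (chromosome 3, 32462572 to 32463148, plus strand, 3295 bases from the gene end), the mRNA folds of the Mettl3 line were 35.2 and 29.6 in the Controls and 13.4 and 14.4 in the CKO libraries. In Mettl14 mRNA they were 16.1 and 21.7 in the Controls and 30.9 and 26.1 in the CKO libraries. The Pik3ca region was thus lower in the Mettl3 CKO libraries and higher in the Mettl14 CKO libraries, without overlap in either line, although folds of different lists are not on one scale. In caRNA its folds were 23.8 and 30.7 against 19.4 and 22.4 in the Mettl3 line and 24.7 and 25.6 against 25.3 and 28.5 in the Mettl14 line.

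Chd7, a chromatin remodeller, had its region at chromosome 4, 8865643 to 8866881, plus strand, 1952 bases from the gene end. Its caRNA folds were 24.6 and 18.8 in the Mettl3 Controls, 16.4 and 13.8 in the Mettl3 CKO libraries, 29.9 and 28.9 in the Mettl14 Controls and 34.4 and 31.1 in the Mettl14 CKO libraries. The lines again differed in direction, with no overlap in either, and the difference between them was not tested. Its mRNA folds were 16.3 and 13.5 against 18.4 and 15.8 in the Mettl3 line, which overlap, and 13.6 and 15.0 against 23.0 and 19.4 in the Mettl14 line, which do not. Zbtb11, a zinc finger protein (chromosome 16, 56006736 to 56007506, plus strand), went from 20.1 and 20.4 to 12.3 and 13.2 in Mettl3 caRNA and from 19.1 and 17.8 to 21.2 and 18.9 in Mettl14 caRNA. Trps1, a repressor with a GATA-type zinc finger (chromosome 15, 50660565 to 50661852, minus strand), went from 17.8 and 23.6 to 14.0 and 12.0 in Mettl3 caRNA. The other 4 genes, Syt14 of the synaptotagmin family, the cell surface protein Tenm4, the activin receptor Acvr2a and the planar polarity cadherin Celsr1, had folds between 12.7 and 34.1 over all lists. These 8 regions thus had a peak in every knockout library.

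A smaller set was found in 1 RNA type alone. Of the 2893 gene-end regions in all 8 caRNA lists 120 were in no mRNA list (4.15%, in 116 genes), against 16.4% of all regions in those 8 lists. In the reverse case it was 30 of 2975 (1.01%), against 1.06% of all, which is at the background. The caRNA set was led by Abcb1a, a drug efflux transporter (chromosome 5, 8730554 to 8730918; folds of 6.86 to 15.5), Ccar1 (6.61 to 12.0), Pard3, a cell polarity scaffold (6.59 to 14.2), and Dmd, which encodes dystrophin (6.55 to 10.4). Their summits lay 17816, 4297, 53903 and 70935 bases before the gene end, so most were far from it in absolute distance. The mRNA set was led by Kctd1 (folds of 8.11 to 15.2), the transcription factor Zbtb16 (5.68 to 18.4), the pantetheinase Vnn1 (5.54 to 16.6) and Fam124a (5.50 to 22.2), with summits 695, 5317, 171 and 1710 bases from the end. In Controls, 83.3% of the gene-end regions found in both mRNA lists of the Mettl3 line were also in both caRNA lists, and 85.3% in the Mettl14 line. In the CKO libraries these shares were 64.1% and 70.3%. From the caRNA side the shares were 67.6% and 60.9% in Controls and 60.6% and 78.0% in CKO libraries. These overlap shares were not taken over all regions. Whether their change from Control to CKO is particular to gene ends was not tested.

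The lost regions with the highest fold differed in kind between the comparisons. In Mettl3 mRNA they lay in Rab31, a small GTPase (chromosome 17, 65661369 to 65661531; Control folds of 8.43 and 9.0), Plxnb1, a semaphorin receptor (8.23 and 8.76), Dlgap3 (7.90 and 7.94) and Dusp10, a MAP kinase phosphatase (7.76 and 7.81), each on the annotated strand. In Mettl14 mRNA they lay in Ddx21, an RNA helicase (chromosome 10, 62601992 to 62602260; 14.4 and 15.0), Anp32b (15.6 and 14.1), the glycolytic enzyme Pgam1 (12.9 and 14.3) and the chaperone Hsp90ab1 (13.4 and 12.0). The Ddx21, Anp32b and Pgam1 regions were on the opposite strand, near the annotated gene start, and the strand of Hsp90ab1 was unknown here. All 4 lay within 296 bases of the end of the gene body along the peak strand. In Mettl3 caRNA the leading lost regions were in Mrpl39, a mitochondrial ribosomal protein (chromosome 16, 84719255 to 84719550; 10.5 and 12.4), Rhpn2 (10.3 and 11.9), the ephrin receptor Epha4 (11.2 and 10.2) and Dapp1 (9.63 and 10.9), all on the annotated strand. In Mettl14 caRNA they included Dhrs4 (8.61 and 9.72), Erc2 on the opposite strand (8.4 and 8.64) and Itpka, an inositol phosphate kinase (8.84 and 7.97).

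Leading gained regions in Mettl3 mRNA lay in Ppp2ca, the catalytic subunit of a protein phosphatase (chromosome 11, 52098829 to 52099086; CKO folds of 12.4 and 13), Acta2, which is also on the feeder marker list (9.80 and 8.50), Synpo (8.33 and 10) and Myef2 (8.15 and 8.26). The Ppp2ca, Acta2 and Myef2 regions were on the opposite strand. In Mettl14 mRNA they lay in the kinase Sik3 (13.2 and 16.9), the bradykinin receptor Bdkrb2 (12.6 and 14.6), the somatostatin receptor Sstr5 (12.4 and 11.2) and the netrin receptor Unc5c (11.1 and 12.7), on the annotated strand where it was known. Gained regions in Mettl3 caRNA included Osbpl9 (8.98 and 7.72), Zfp462 (9.23 and 7.69) and Ttc12 (6.99 and 8.71), and those in Mettl14 caRNA were led by Mapkap1 (7.30 and 10.2), Tnfrsf11b (7.24 and 6.47), Ston1 (6.57 and 6.26) and Nexmif (6.70 and 6.13).

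The lines shared a small part of these calls. Over the regions of all 16 lists, 480 gene-end regions were lost in Mettl3 mRNA and 190 in the Mettl14 line, and 9 in both, which is 1.88% of the first list and 4.74% of the second. Of the 480, 242 were retained in the Mettl14 line and 48 were gained there. In caRNA 1236 and 851 were lost and 172 in both, 13.9% and 20.2% of the lists, while 513 of the 1236 were retained in the Mettl14 line. Regions lost in one line and retained or gained in the other were not counted over all regions. Whether those counts are particular to gene ends was not tested. Over all regions of the lists, lost ones shared by both lines were 1.23% and 2.36% of the lists in mRNA and 9.76% and 8.27% in caRNA, where the lists are also longer. Each line has Controls of its own, so these overlaps share no libraries, and they were not tested. Gains in both lines came to 21 of 235 and 744 in mRNA (8.94% and 2.82%) and 16 of 390 and 167 in caRNA (4.10% and 9.58%). Over all regions, gains in both lines were 6.74% and 2.53% of the lists in mRNA and 6.16% and 12.5% in caRNA. The gene-end shares were thus slightly higher than these in mRNA and lower in caRNA. The leading regions lost in both lines were Vav1, a guanine nucleotide exchange factor (Control folds of 6.43 and 6.14 in the Mettl3 line and 5.29 and 4.85 in the Mettl14 line), Proca1, Btrc, a ubiquitin ligase subunit, and Zfp36l1, which promotes decay of AU-rich messenger RNA, in mRNA. In caRNA they were Itpka (8.30 and 9.72 against 8.84 and 7.97), the chloride channel Clcn1, Zfp609 and the ciliary protein Ift122. Gains in both lines were led by Syncrip on the opposite strand, Sash1, Elfn1 and Rhbdd2 in mRNA, with CKO folds of 4.69 to 10, and in caRNA included Frrs1l, Robo1 and 2310057M21Rik, with 3.9 to 7.18.

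A gene that lost a gene-end region mostly kept other peaks. Of the 550 genes with a lost region in Mettl3 mRNA 61.5% kept a retained region somewhere in the gene, and 29.6% kept another one in the last 10%. In the other comparisons 64.6% of 189, 68.9% of 1254 and 73.1% of 804 genes kept one. A regional loss was thus usually not the loss of the gene's only peak.

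Genes of 7 lists were followed by whether a gene-end region was lost or gained. Over all genes with such a region in both Controls, 13.7% had a lost one in Mettl3 mRNA, 5.16% in Mettl14 mRNA, 27.1% in Mettl3 caRNA and 18.5% in Mettl14 caRNA. Over all genes with a region in both CKO libraries, 6.60%, 17.6%, 10.4% and 4.61% had a gained one in the same order. Zinc finger genes (symbols with Zfp), many of which encode transcription factors, had 377 members in the class. Of those marked 49 of 149 had a loss in Mettl3 caRNA (32.9%), 14 of 144 in Mettl14 caRNA (9.72%), 15 of 137 in Mettl3 mRNA (10.9%) and 9 of 138 in Mettl14 mRNA (6.52%). Their gains were 3 of 128, 15 of 147, 3 of 109 and 2 of 131, each a smaller share than over all genes. The strongest call was the loss of Zfp566 in Mettl3 caRNA (8.76 and 8.21), followed by the gain of Zfp462 there (9.23 and 7.69). Next came the loss of Zfp810 in Mettl3 caRNA (7.97 and 6.91), the gain of Zfp219 there on the opposite strand (6.87 and 7.26), the loss of Zfp746 in Mettl3 mRNA on the opposite strand (6.77 and 7.24) and the losses of Zfp609 in caRNA of both lines (6.63 and 6.12, then 6.64 and 6.54).

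Solute carriers, the membrane transporters of small molecules, had a loss in 34 of 88 marked genes in Mettl3 caRNA (38.6%) and 19 of 85 in Mettl14 caRNA (22.4%). All genes stood at 27.1% and 18.5% there, and at 13.7% and 5.16% in Mettl3 and Mettl14 mRNA. Gains over all genes were 6.60% and 17.6% in mRNA and 10.4% and 4.61% in caRNA of these lines. In mRNA the solute carriers had losses in 7 of 71 and 1 of 73 and gains in 10 of 67 and 12 of 90, and in caRNA gains in 4 of 50 and 0 of 66. Slc1a3, a glutamate transporter (9.06 and 8.49), Slc2a7 (8.84 and 7.84), Slc7a6 (6.93 and 6.94) and Slc5a6, a vitamin transporter (6.79 and 7.70), lost regions in Mettl3 caRNA. Slco3a1 gained one in Mettl14 mRNA (11 and 10.1).

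Signalling genes of the LIF, WNT, FGF and TGF-beta pathways had a loss in 7 of 20 marked genes in Mettl3 caRNA, against 1 of 19 in Mettl14 caRNA, 2 of 17 in Mettl3 mRNA and 1 of 18 in Mettl14 mRNA. The 7 in Mettl3 caRNA were Smad7, an inhibitor of TGF-beta signalling (7.97 and 6.41), the WNT feedback gene Axin2 (4.95 and 5.27), the LIF co-receptor Il6st (5.79 and 4.19), Fgfr2 (3.55 and 3.45), Apc (3.42 and 3.19), Ctnnb1, which encodes beta-catenin (3.18 and 2.90), and Axin1 (2.79 and 2.91). Axin1 was also the loss in Mettl14 caRNA (3.08 and 3.50). Gains came to 2 of 16 and 3 of 20 in Mettl3 and Mettl14 mRNA and to 0 of 14 and 0 of 17 in caRNA. They included Smad7 in mRNA of both lines (4.74 and 4.06, then 5.13 and 6.51), the kinase gene Gsk3b in Mettl3 mRNA (5.65 and 3.63) and the transcription factor gene Tcf7l1 in Mettl14 mRNA (2.39 and 2.5). The annotated strands of Smad7, Apc and Axin1 were unknown here. The Smad7 gains and the Smad7 loss in Mettl3 caRNA lay on the minus strand. The loss in Mettl14 mRNA was a Smad7 region on the plus strand (3.24 and 2.03), at the other end of the gene body. The counts are small, and 27.1% of all marked genes had a loss in Mettl3 caRNA.

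Chromatin regulators had a loss in 4 of 29 marked genes in Mettl3 caRNA (13.8%) and 10 of 30 in Mettl14 caRNA (33.3%), where all genes stood at 27.1% and 18.5%. The losses of the Mettl14 line included the Polycomb genes Pcgf2 (4.99 and 5.91), Pcgf6 (3.76 and 3.81) and Rnf2 (3.15 and 4.32), the histone methyltransferase genes Ehmt2 (4.41 and 5.25), Kmt2c (3.96 and 3.81) and Setdb1 (4.60 and 3.20), and Tet2, an enzyme that oxidises methylated DNA (4.08 and 4.19). In mRNA 4 of 26 had a loss in the Mettl3 line and 1 of 24 in the Mettl14 line. Gains came to 2 of 25 and 5 of 26 in Mettl3 and Mettl14 mRNA, 1 of 26 in Mettl3 caRNA and 3 of 27 in Mettl14 caRNA (11.1%, against 4.61% of all genes). The strongest gains were in the chromatin remodeller gene Chd4 on the opposite strand, in Mettl3 mRNA (6.44 and 8.60) and Mettl14 caRNA (4.70 and 4.34), and in the histone demethylase gene Kdm5b in Mettl14 caRNA (5.17 and 5.78).

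Over all genes, losses stood at 13.7%, 5.16%, 27.1% and 18.5% in Mettl3 and Mettl14 mRNA and Mettl3 and Mettl14 caRNA. Among the m6A machinery 1 of 10, 0 of 9, 3 of 12 and 3 of 14 marked genes had a loss in the same order. In Mettl3 caRNA these were Zcchc4, a methyltransferase of ribosomal RNA (8.15 and 6.16), Virma, a subunit of the writer complex (3.24 and 2.41), and the demethylase gene Alkbh5, on the opposite strand (4.18 and 4.46). In Mettl14 caRNA they were the demethylase gene Fto (3.64 and 3.93), Virma (3.97 and 3.32) and Mettl14 itself (3.82 and 2.82), the gene targeted in that line. The Virma losses were different regions of chromosome 4, 11545951 to 11546224 in the Mettl3 line and 11550370 to 11550556 in the Mettl14 line. Ythdf1, a reader, lost a region in Mettl3 mRNA (2.61 and 2.33). Gains came to 1 of 9, 4 of 12, 1 of 8 and 0 of 10 in the same order. The 4 in Mettl14 mRNA (33.3%, against 17.6% of all genes) were Rbm15, a subunit of the writer complex, on the opposite strand (5.95 and 8.37), Alkbh5 on the opposite strand (5.02 and 3.28), Ythdc1, a nuclear reader (2.33 and 2.15), and Zcchc4 (2.54 and 1.70). Alkbh5 also gained a region on its annotated strand in Mettl3 mRNA (3.88 and 3.62).

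Of the pluripotency list 1 of 7, 1 of 9, 2 of 9 and 2 of 11 marked genes had a loss in the same order. They were Sall4 in Mettl3 mRNA (2.60 and 2.66), Zfp42 on the opposite strand in Mettl14 mRNA (5.36 and 5.82), Sall4 (3.30 and 3.98) and Esrrb (2.54 and 3.43) in Mettl3 caRNA, and Esrrb (3.49 and 3.33) and Lin28a (1.94 and 1.98) in Mettl14 caRNA. The Esrrb losses were different regions of chromosome 12, starting at 86520568 in the Mettl3 line and at 86506240 and 86519449 in the Mettl14 line. Gains came to 1 of 6, 2 of 10, 1 of 7 and 0 of 10, with Klf5 in Mettl3 mRNA the strongest (7.38 and 5.49). Esrrb also gained regions, in Mettl14 mRNA (2.11 and 2.42) and in Mettl3 caRNA (2.42 and 2.47). The annotated strands of Klf5 and Sall4 were unknown here. The genes of this list are regulators of the stem cell state, and most of their lost regions had folds below 4. RNA decay genes had a loss in 4 of 8 marked genes in Mettl3 caRNA, namely the deadenylase subunits Cnot2 (5.89 and 5.76) and Cnot8 (2.67 and 2.42), the exonuclease Xrn1 (4.86 and 5.41) and the decapping factor Dcp1a (3.10 and 3.38). They had a loss in 1 of 8, 0 of 8 and 2 of 9 in Mettl3 and Mettl14 mRNA and Mettl14 caRNA. Gains came to 0 of 5, 2 of 9, 1 of 7 and 0 of 6 over the 4 comparisons, led by the deadenylase component Cnot4 in Mettl14 mRNA (5.89 and 5.62). Over all genes, losses stood at 13.7%, 5.16%, 27.1% and 18.5% in Mettl3 and Mettl14 mRNA and Mettl3 and Mettl14 caRNA. Gains over all genes stood at 6.60%, 17.6%, 10.4% and 4.61% in that order. With so few marked genes per list the counts of the lists are descriptions, and no list was tested.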

How the data were processed

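The deposited data are 1 strand-specific peak list for each of the 16 immunoprecipitation libraries, without pooling of replicates. The submitters' processing notes name CASAVA, Trimmomatic 0.38, HISAT2 2.1.0 and SAMtools 1.9 and the build mm10. The peak caller and the scaling of immunoprecipitation and input are, in the sources used here, not given. Per the file columns, the authors deposited for each peak a fold enrichment (a ratio), a −log10 p-value and −log10 q-value, a display score (not used) and a summit offset. The lowest −log10 q of a list was 2.00 to 2.02. Folds are the authors' values and serve only to rank or describe peaks. The 43 peaks that lay on spike-in transcripts were left out.

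Gene bodies came from a RefSeq table of GRCm38.p6, the build of mm10, with 49980 genes, 16853 of them in the class. The promoter table gave a strand for 13412. Shares were tested over libraries with exact two-sided permutation tests within strata, or sign flips of the 8 group means, adjusted by Benjamini-Hochberg over 8 tests, and tested on simulated data. Another 14 tests were chosen after their values were seen. Lost, gained and retained regions were only described. Python 3.11.15 with pandas 2.3.3 and scipy 1.17.1 was used. The members, lists and alternatives were chosen with earlier results of these data known. Genes were named by rule: the 8 strongest regions of all 16 lists, the 4 strongest lost and gained per comparison, the 4 strongest of 1 RNA type alone or called in both lines, and up to 6 per gene list; further members of short lists were named after their values were seen, where a count was small. Some regions that the rule selects are not reported here.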

Additional observations from a re-analysis of the deposited data

Results flagged for a closer look

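The knockout effect on the share of gene-end peaks was flagged as different between groups in tests chosen after the data were seen, which removed the common difference between CKO and Control before permuting. The effect was smaller by 1.82 points in the Mettl14 line than in the Mettl3 line (exact permutation adjusted p = 0.0494). On the log2 scale of the share the line difference was 0.143 (exact permutation adjusted p = 0.0478). The difference between RNA types, caRNA minus mRNA, was -0.134 on the log2 scale (exact permutation adjusted p = 0.0478), but -0.382 in points with an exact permutation adjusted p of 0.628. All 3 values rest on 16 libraries and lie near the threshold, and the test fixed for these differences gave adjusted p-values of 0.520 and 0.849 by exact permutation.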

How the results depend on the processing

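The lower share of gene-end peaks in the knockouts and in caRNA kept its direction and its side of the threshold under all 12 and 11 alternatives run. Leaving out each library in turn gave -4.14 to -3.81 points for CKO minus Control, -14.0 to -13.7 for caRNA minus mRNA and 3.29 to 3.62 for the Mettl14 minus the Mettl3 line. It gave 1.48 to 2.15 for the difference between lines and -0.715 to -0.0482 for that between RNA types. The latter was -0.715 without Mettl14 mRNA Control 1, -0.0482 without Control 2 of that group and -0.205 without Mettl3 caRNA Control 1, and it reversed to 0.213 with the last 20% of the gene. The differences between lines and between RNA types moved furthest with the 10000 strongest peaks, to 5.60 and -5.36 points, and by gene, to 4.32 and -4.09, without passing. The fold percentile of gene-end peaks minus elsewhere ranged from 2.91 to 3.12, that of CKO minus Control from -2.19 to -1.87 and that of caRNA minus mRNA from 5.46 to 5.78. The first reversed to -2.87 with the last 1 kb, and the CKO difference was -0.62 with the 10000 strongest peaks. The line difference no longer passed at 1.26 points (last 1 kb), 2.91 (by gene) and 3.46 with the replicate block (exact permutation adjusted p = 0.0547). The percentile difference between RNA types, 5.62, also no longer passed with the block (exact permutation adjusted p = 0.0547), and the block changed no other call. Within comparisons the replicate numbers did not pair Control with CKO libraries: over retained gene-end regions the correlation of replicate differences was -0.00356, 0.0144, -0.00409 and -0.00566. Pairing between RNA types or between lines, on which both calls changed by the block rest, was not checked. With the common difference removed, the difference between lines passed at 1.82 points and at 0.143 in log2, and that between RNA types at -0.134 in log2. The cause of these changes was not tested.

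The lost and gained shares also moved. With the 10000 strongest peaks, losses were 14.3% and 8.53% in mRNA and 44.9% in Mettl3 caRNA, and gains 7.24%, 7.02%, 9.82% and 5.16%. With summits within 100 nt, losses were 14.2%, 10.7%, 26.9% and 18.5% and gains 9.41%, 18.1%, 16.2% and 8.94%, for Mettl3 and Mettl14 mRNA and Mettl3 and Mettl14 caRNA. With the last 5% of the gene, mRNA losses were 11.9% and 5.07%, the caRNA Mettl14 loss 15.7%, and gains 5.87% in Mettl3 mRNA and 3.10% in Mettl14 caRNA. A −log10 q of at least 5 gave a Mettl14 mRNA loss of 4.19%. On the annotated or dominant strand, an alternative added after the data were seen, that loss was 2.72%, and gains were 4.29% in Mettl3 mRNA and 7.53% and 3.41% in caRNA. Leaving out a library, which loosens each call by construction, gave losses of 15.5% to 16.6%, 5.44% to 6.96%, 26.9% to 30.7% and 19.4% to 21.2% and gains of 7.94% to 9.42%, 18.5% to 21.2%, 11.8% to 16.2% and 5.45% to 7.83%. Unknown read depth limits every statement about a missing peak.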

Other observations

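Between 887 and 1380 genes per list carried more than 1 gene-end peak, which was 22.3% to 23.6% of the marked genes in mRNA and 26.9% to 29.1% in caRNA. The shares of these genes did not overlap between RNA types. Measured in bases, 35.1% to 42.7% of gene-end peaks over all lists had their summit within 1 kb of the gene end and 82.9% to 90.7% within 5 kb. Of 10 early lineage symbols, 7 had a peak somewhere in the gene, with Pax6, Sox1 and the alias Nestin in no list. Here too a summit inside more than 1 gene body was given to no gene. In the last 10% of the gene, Gata6, an endoderm transcription factor, was marked in 8 lists at folds of 5.10 to 10.8 and Nes, which encodes nestin, in 6 lists at 3.34 to 6.00. Among fibroblast collagens the gene-end peak of Col1a2 was found in 16 lists at folds of 2.62 to 13.8 and that of Col6a1 in 12 at 3.24 to 22.5. Peaks there do not measure how much of these genes the cells express.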
